A study of Homo sapiens with 10 samples.

Results

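Distal 17q is taken here as the part of the long arm of human chromosome 17 whose genes start at 50 Mb or beyond (hg19). The table of untreated cells held 450 such genes among 26256 rows, from a first start at 51062880 to a last end at 81188573. Of these, 290 passed the filter on low counts, against 14376 of all rows. The region was selected on the same data, because RNA of its genes stood higher in the oncogene-bearing cells, so every G12V against MCF10A value of its genes below is a description and was not used as evidence for that shift. Genes of chromosome 17 starting below 50 Mb, of which 603 of 1030 passed the filter, served as the control.

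MCF10A is an immortalized, non-transformed human mammary epithelial line. The control cells, labelled Parental and untreated, were compared with MCF10A cells carrying HRAS with the G12V mutation (labelled H-RAS Gv12 and also untreated, hereafter G12V), which had been made by viral transfer of the oncogene and drug selection, with 2 poly(A) RNA-seq libraries for each. A second experiment treated parental MCF10A cells with 10 µM Nutlin-3a, an inhibitor of the binding of MDM2 to p53, or with the vehicle DMSO, for 4 h (3 libraries each). The G12V cells are a selected population grown for weeks, and the sources used here do not say whether the parental cells of the RNA libraries carried an empty vector. The libraries are described by the submitters as biological replicas, and p-values below measure the spread between these libraries.

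The long arm of chromosome 17 beyond the centromere-near ERBB2 and BRCA1 loci is dense in housekeeping and growth genes. It holds the p53 phosphatase gene PPM1D, the kinase gene RPS6KB1, the mitotic survival gene BIRC5 and the adaptor gene GRB2, which links receptors to RAS. Gain of its DNA is a known event in breast tumours. Only RNA was measured in the files used here, so the number of DNA copies was not tested.

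Upstream sequences are shown for 3 genes on which the results turn: GALK1, the member with the largest rise by the naming rule, CLTC, which had the most reads among the members called higher, and PPM1D, the member that rose after Nutlin-3a. Each is the 250 bases before the gene's start from RefSeq (GRCh38.p14, a different build from the count tables), written 5′ to 3′ on the gene's own strand. GALK1 lies at chr17:75765193-75765442 on the minus strand, CLTC at chr17:59619645-59619894 on the plus strand and PPM1D at chr17:60599943-60600192 on the plus strand. Capitals mark matches, on either strand, to the SP1 motif GGGCGG (reverse CCGCCC) and the NF-Y motif CCAAT (reverse ATTGG).
GALK1: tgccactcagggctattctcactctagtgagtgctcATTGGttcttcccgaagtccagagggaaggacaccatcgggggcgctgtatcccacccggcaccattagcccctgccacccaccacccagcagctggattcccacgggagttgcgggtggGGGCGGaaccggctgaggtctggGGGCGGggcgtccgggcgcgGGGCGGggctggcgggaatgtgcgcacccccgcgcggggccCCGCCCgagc
CLTC: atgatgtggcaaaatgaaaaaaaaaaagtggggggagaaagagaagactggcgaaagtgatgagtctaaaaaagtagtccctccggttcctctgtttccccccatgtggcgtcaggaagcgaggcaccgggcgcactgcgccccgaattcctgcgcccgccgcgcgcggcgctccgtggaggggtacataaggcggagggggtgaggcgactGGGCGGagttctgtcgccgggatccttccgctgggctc
PPM1D: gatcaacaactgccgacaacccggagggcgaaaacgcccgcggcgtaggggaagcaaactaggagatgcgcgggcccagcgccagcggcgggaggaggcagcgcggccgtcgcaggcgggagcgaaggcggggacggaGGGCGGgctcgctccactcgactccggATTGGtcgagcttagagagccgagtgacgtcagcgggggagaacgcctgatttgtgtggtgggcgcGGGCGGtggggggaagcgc

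The GALK1 window held 4 SP1 matches and 1 NF-Y match, the CLTC window held 1 SP1 match, and the PPM1D window held 2 SP1 matches and 1 NF-Y match. Their GC contents were 70.4%, 60.8% and 70.4%. No match was found in these windows to the AP-1 motif TGANTCA, the ETS motif CCGGAA or the E-box CACGTG, searched on both strands. Of all 27305 upstream windows of the same length, 42.3% held the SP1 motif, 33.0% NF-Y, 14.8% ETS, 6.60% AP-1 and 6.49% the E-box. Among the 10468 tested genes with a sequence, the shares in this order were 66.1%, 34.7%, 24.3%, 4.41% and 8.83%. The SP1 motif was thus common before tested genes. A match is a string of letters and was not tested as a binding site. Only 182 of the 290 tested members (62.8%) had a sequence, too few for a comparison of motif shares with other genes.

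Library totals of the untreated cells ran from 21538593 to 23683975 counts. HRAS, on chromosome 11, checked the labels: it was at 72.6 and 65.9 CPM (counts scaled to the size of the library, with TMM factors) in MCF10A and at 631 and 515 CPM in G12V (log2 fold change 3.05 ± 0.23 SE, adjusted p = 0.00165, edgeR's quasi-likelihood test, n = 2 per group), and the counts do not separate the introduced from the endogenous gene. Most but not all epithelial markers were lower in G12V. Of 8 epithelial markers, 6 were called lower, and their summed level was 6856 to 8415 CPM in MCF10A and 1363 to 1662 CPM in G12V. CDH1, KRT14, KRT17 and TP63 were all below 2 CPM in both G12V libraries. KRT5, also called lower, was still at 936 and 1220 CPM there. KRT8 (211 and 233 CPM in G12V, log2 fold change 0.18) and KRT18 (208 and 200 CPM, -0.71) were not called. Of 6 mesenchymal markers 4 were called higher and 1, FN1, lower, with summed levels of 1665 to 2088 and 1632 to 2251 CPM. The part of this change in the values of distal 17q was not tested, and in bulk RNA fewer cells of a type and less RNA per cell cannot be told apart. Of 5 fibroblast markers 4 were tested and 1, LUM, was called higher (summed level 37.5 to 64.9 CPM in MCF10A and 53.4 to 60.1 CPM in G12V), and PDGFRA had at most 6 counts in any library. Of 4 endothelial markers 2 were tested and none was called (8.09 to 32.2 and 7.91 to 8.79 CPM, mostly KDR), with VWF at most 4 counts and CDH5 at most 16. Of 4 leukocyte markers 2 were tested and CD68 was called higher, from 12.3 and 12.1 CPM to 37.3 and 72.7 CPM (summed level 30.4 to 49.1 and 59.0 to 112 CPM), while PTPRC and CD3E had at most 1 count. The calls are those of the rule given below for all genes, and the part of these markers in the values of distal 17q was not tested either.

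In the G12V cells RNA of distal 17q stood higher, with a median above 0 in every step of 5 Mb. Of the 290 tested members, 241 (83.1%) had a log2 fold change above 0, with a median of 0.56, a 1.47-fold difference. The middle 50% of members lay between 0.20 and 0.90 on the log2 scale. Control genes of the same chromosome had 48.6% above 0 and a median of -0.013, and all tested genes had 49.9% above 0 and a median of -0.0011. The spread among members was like that of other genes, with an interquartile range of 0.70 against 0.76 in the control and 0.71 in all genes.

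A gene was called where edgeR's quasi-likelihood test gave an adjusted p under 0.05 and the log2 fold change exceeded 0.5 in size. By this rule 44 members were higher and 4 lower in G12V. Over all genes tested, 5.01% were called higher and 5.95% lower. Both G12V libraries exceeded both MCF10A libraries for 187 members (64.5%), against 27.5% of all genes, and both were below for 18 (6.21%), against 27.4%. Since the same comparison chose the region, nothing is read from these shares. The number of calls rested on the parental libraries: without MCF10A replicate 1 no member was called in either direction (66 genes in the whole table, against 1575), and without MCF10A replicate 2, 26 members were called higher, while the median stayed between 0.49 and 0.60 whichever library was left out.

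Each library gave the same picture. The summed level of the tested members was 23857 and 25050 CPM in MCF10A and 31121 and 33205 CPM in G12V. For the control genes the sums were 41402 and 44293 CPM in MCF10A and 38780 and 40134 CPM in G12V. The summed levels thus did not overlap in either set, with distal 17q higher and the control lower in G12V. The control sum includes KRT17, at 1834 and 2297 CPM in MCF10A and 1.58 and 0.40 CPM in G12V. It is therefore not a measure of the typical control gene. For members, the median log2 difference between a G12V and an MCF10A library was 0.54, 0.57, 0.49 and 0.47 over the 4 possible pairs. It was 0.0093 between the MCF10A libraries and -0.029 between the G12V libraries. For control genes the same 4 pairs gave 0.021, 0.031, -0.038 and -0.028.

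**Figure D1:**
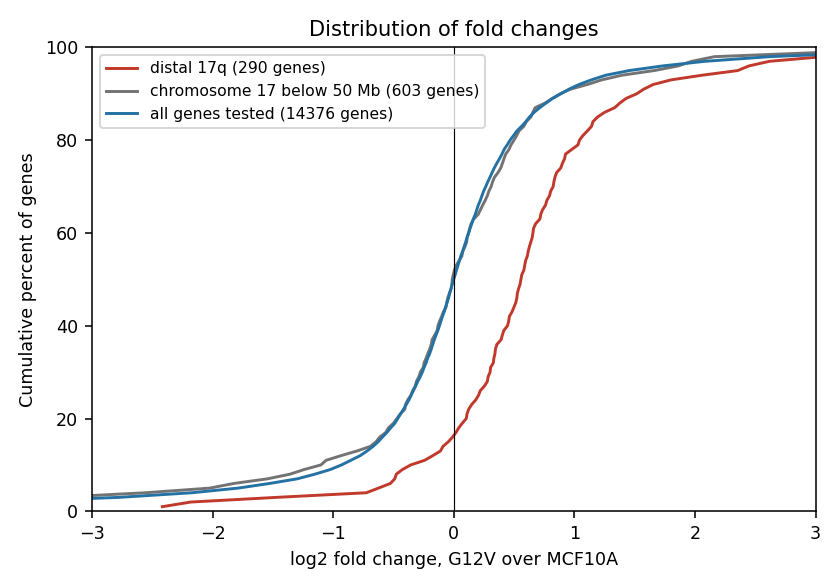
Cumulative percent of genes (y axis) against log2 fold change of G12V over MCF10A (x axis), drawn through the percentiles 1 to 99, for 290 distal 17q genes, 603 control genes of chromosome 17 and all 14376 tested genes. The distal 17q curve lies to the right of the other curves over most of its length, with its median at 0.56, and the other curves cross near 0.

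Of the 160 members that did not pass the filter, 77 had no count in any library and 153 had at most 10 counts in every library. Among those tested, 3 had at most 3 counts in each MCF10A library and 1 in each G12V library, so their fitted fold changes carry no size. Setting these at the bound given by 3 counts per library leaves the median where it is, since each lies far from it. The shift was present at every level: in 3 equal classes of expression in the separate DMSO and Nutlin-3a libraries, the medians were 0.61, 0.60 and 0.55 from low to high, with 79.5%, 89.6% and 89.7% of members above 0. In 3 classes of transcript GC content, known for 253 of 290 members, the medians were 0.56, 0.64 and 0.57, where genes outside the region had 0.023, -0.040 and -0.076.

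**Figure D2:**
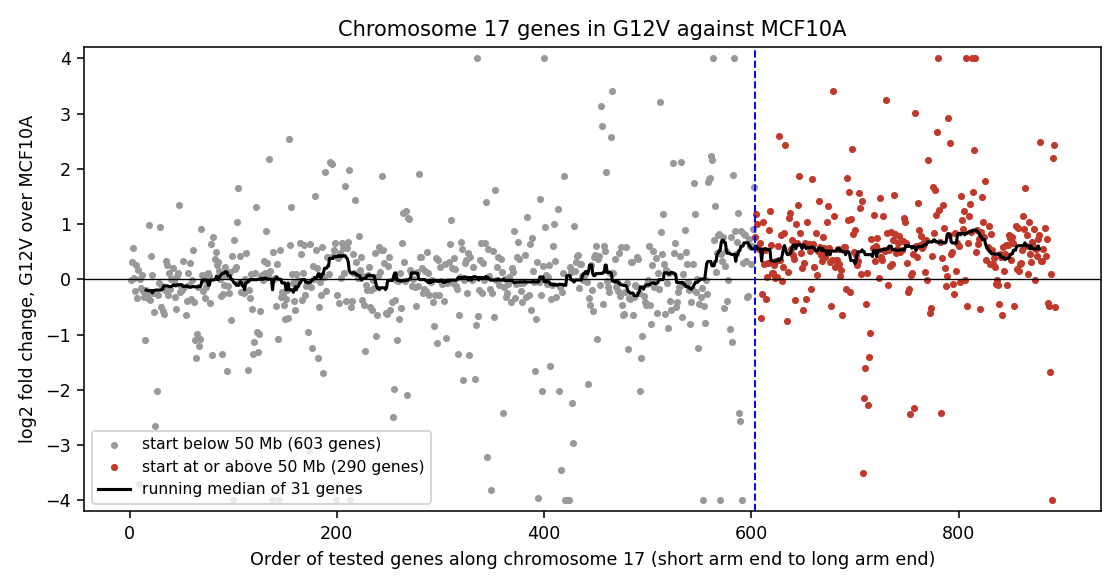
Log2 fold change of G12V over MCF10A (y axis, values beyond 4 drawn at 4) for the tested genes of chromosome 17 in their order along the chromosome (x axis). Points are genes, the line is the running median of 31 genes, and the dashed line marks the 50 Mb limit between 603 control genes and 290 distal 17q genes. The running median stays near 0 over most of the control, rises before the limit and remains above 0 to the end of the long arm.

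The shift did not begin at the 50 Mb limit. In steps of 5 Mb, the median log2 fold change lay between -0.14 and 0.15 in every window below 45 Mb, was 0.31 from 45 to 50 Mb (66 genes), and was then 0.66, 0.46, 0.54, 0.34, 0.59, 0.62 and 0.49 in the 7 windows beyond. The first of these held 9 genes and the one from 65 to 70 Mb held 19, so neither entered the ranking that follows. Within the step before the limit, the median was -0.18 from 45 to 46 Mb and 0.71 from 46 to 47 Mb. Of 265 windows of the genome with 20 or more tested genes, the 5 that belong to distal 17q had the 5 highest medians, from 0.46 to 0.62, and the highest outside chromosome 17 was 0.30. Just below the limit stood MBTD1 (log2 fold change 0.60), the nucleolar gene UTP18 (0.91) and LOC101927274 (1.66). Just above it stood TOM1L1 (0.76), an adaptor of endosomal sorting, COX11 (1.19), a copper chaperone of cytochrome c oxidase, and STXBP4 (1.01).

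The longest unbroken run of tested genes above 0 held 19 genes, from P4HB to FASN (chr17:79801034-80056106). Genes with starts at most 1000 bases apart on opposite strands formed 37 pairs, in 29 of which both were above 0 and in 1 of which both were below. Since 83.1% of all tested members were above 0, nothing about shared starts is read from these counts. In 1 pair both genes were called higher: JMJD6, a hydroxylase of lysine and arginine residues, and METTL23, a methyltransferase, start 31 bases apart and differed by 1.35 and 0.92 on the log2 scale. The COX11 and STXBP4 starts are 62 bases apart. The median difference between partners was 0.37, so that partners in a pair could still differ.

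The 8 largest called rises among members of at least 5 CPM on average were those of GALK1, MGAT5B, SEC14L1, METRNL, GDPD1, PITPNC1, ENGASE and B3GNTL1. GALK1, galactokinase of the Leloir pathway (chr17:73754018-73761280, minus strand), was at 6.91 and 3.26 CPM in MCF10A and at 38.0 and 44.4 CPM in G12V, a log2 fold change of 3.02 ± 0.39 (SE). Its 3′ end lies just beyond that of ITGB4, which runs toward it on the other strand and was lower in G12V. MGAT5B, a glycosyltransferase of O-mannosyl glycans, stood at 2.36 and 1.76 CPM against 14.4 and 16.9 CPM. In both genes the G12V libraries were well separated from the MCF10A libraries.

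SEC14L1, a lipid-binding protein of the SEC14 family (chr17:75084725-75213181), was at 54.95 and 75.2 CPM in MCF10A and at 251 and 471 CPM in G12V. It shares its strand and span with SNHG20, so their reads are not fully separable. PITPNC1, a phosphatidylinositol transfer protein (chr17:65373397-65693379), was at 47.1 and 47.9 CPM in MCF10A and at 190 and 299 CPM in G12V, a log2 fold change of 2.37 ± 0.27 (SE). G12V replicate 2 was the higher library for both genes. ENGASE, a cytosolic enzyme that removes N-glycans, was at 27.6 and 17.5 CPM against 101 and 127 CPM. METRNL, a secreted protein, was at 3.86 and 4.32 CPM against 18.5 and 25.6 CPM. For GDPD1, a phosphodiesterase of lysophospholipids, the values were 1.59 and 2.47 CPM against 8.04 and 13.8 CPM. B3GNTL1, named for its likeness to glycosyltransferases, stood at 3.73 and 2.69 CPM in MCF10A and at 13.6 and 15.9 CPM in G12V. None of these genes had overlapping groups. Some members with fewer reads were called with larger fold changes, such as MILR1, a receptor of mast cells, at 0.73 and 0.57 CPM against 6.76 and 7.09 CPM, and RBFOX3, the neuronal splicing factor NeuN, at 0.18 and 0.088 CPM against 3.42 and 5.84 CPM.

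**Figure D3:**
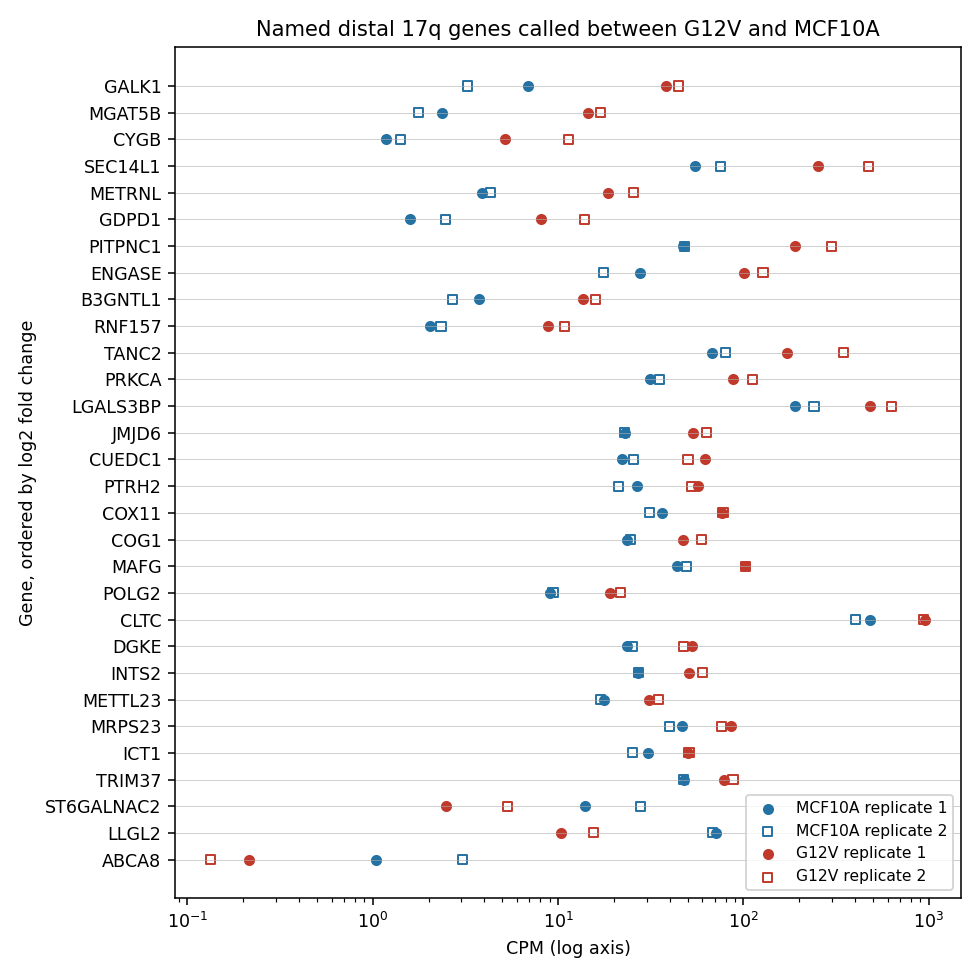
CPM in each library (x axis, log scale) for 30 named distal 17q genes that were called, ordered by log2 fold change (y axis). Circles are replicate 1 and squares replicate 2, blue for MCF10A and red for G12V. In the upper 27 genes the red points lie to the right of the blue, from GALK1 at the top, and in the lower 3 (ST6GALNAC2, LLGL2 and ABCA8) they lie to the left. ZNF750, at 0 in G12V, cannot be drawn on a log axis.

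The members were also read by function, as a description. Over all genes tested 5.01% were called higher and 5.95% lower, and over distal 17q 15.2% and 1.38%. The counts of calls in each group below were not tested against these shares, and nothing is read from them. Growth and signalling genes numbered 37 tested, with 3 called higher, none lower, and a median of 1.44-fold. Besides PITPNC1, the called genes were PRKCA, the kinase PKCα, at 31.3 and 35.2 CPM in MCF10A and 87.3 and 112 CPM in G12V, and DGKE, a diacylglycerol kinase, at 23.4 and 25.3 CPM against 52.8 and 47.5 CPM. PRKCA overlaps PRKCA-AS1 on the other strand. GRB2 was at 140 and 122 CPM in MCF10A and at 210 and 202 CPM in G12V (log2 fold change 0.65 ± 0.18 SE). RPS6KB1, the S6 kinase, had 59.6 and 43.3 CPM against 75.2 and 65.3 CPM. Neither passed the call, though the groups did not overlap. PPM1D overlapped between groups, at 15.1 and 24.4 CPM against 20.6 and 24.8 CPM. MAP3K3, a kinase of the MAP kinase cascades, did too (41.6 and 48.8 CPM against 50.4 and 45.2 CPM), as did PRKAR1A, a regulatory subunit of protein kinase A, with a log2 fold change of 0.11.

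DNA repair, replication and mitosis genes had 3 of 25 called higher, none lower, and a median of 1.38-fold. POLG2, the accessory subunit of the mitochondrial DNA polymerase, was at 9.00 and 9.38 CPM in MCF10A and at 19.0 and 21.6 CPM in G12V. TRIM37, a ubiquitin ligase that limits centriole duplication, was at 48.0 and 47.2 CPM against 78.2 and 87.8 CPM and overlaps PPM1E on the other strand. The list also holds TOM1L1, the endosomal sorting adaptor, which was not called. INTS2, which was put in this list but belongs to the Integrator complex that processes small nuclear RNAs, was at 27.0 and 27.2 CPM against 51.1 and 60.4 CPM. TK1, the S-phase thymidine kinase, was at 98.5 and 49.5 CPM in MCF10A and at 123 and 41.7 CPM in G12V. KPNA2, an importin, was at 359 and 193 CPM against 483 and 269 CPM. Both overlapped between groups, while BIRC5 (survivin), at 129 and 95.8 CPM against 210 and 130 CPM, did not overlap and was not called. In these 3 genes replicate 1 was the higher library in both groups. PRR11, another cell cycle gene, overlapped between groups (log2 fold change 0.22).

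Transcription and chromatin genes had 2 of 22 called higher, 1 lower, and a median of 1.48-fold. MAFG, a small MAF partner of NRF2, was at 43.5 and 49.3 CPM in MCF10A and at 102 and 103 CPM in G12V. JMJD6 was at 22.8 CPM in both MCF10A libraries and at 53.4 and 63.1 CPM in G12V. ZNF750, a factor of epidermal differentiation, had 44 and 35 counts in MCF10A and 0 in both G12V libraries, at least 13.5-fold lower with a floor of 3 counts per library, and it overlaps TBCD on the other strand. SOX9, a factor of mammary progenitor cells, was at 27.2 and 11.6 CPM against 7.01 and 7.54 CPM and was not called. TBX2, a repressor amplified in some breast tumours, was at 4.68 and 4.58 CPM against 7.14 and 7.45 CPM (log2 fold change 0.65 ± 0.29 SE), also not called. FOXK2 (0.42), CBX2 (0.89) and the histone gene H3F3B (0.61) were above 0 without a call. H3F3B, ACTG1 and RPL38 have near-identical copies or relatives elsewhere, among which reads can be split.

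Of the RNA processing and translation genes 27 of 28 were above 0, 5 were called higher and none lower, with a median of 1.57-fold. The called genes were PTRH2, a peptidyl-tRNA hydrolase (log2 fold change 1.20), METTL23 (0.92), the mitochondrial ribosomal proteins MRPS23 (0.90) and ICT1 (0.86), and SMG8 of nonsense-mediated decay (0.84). PTRH2 overlaps VMP1 on the other strand. MRPS23 was at 46.8 and 39.9 CPM in MCF10A and at 85.7 and 76.0 CPM in G12V. The helicase gene DDX5, at 538 and 399 CPM against 630 and 460 CPM, overlapped between groups, and the ribosomal protein gene RPL38, at 258 and 363 CPM against 397 and 503 CPM, did not but was not called.

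Protein folding, sorting and turnover genes had 7 of 33 called higher, none lower, and a median of 1.55-fold. CLTC, the clathrin heavy chain (chr17:57697050-57774317), was at 479 and 401 CPM in MCF10A and at 959 and 940 CPM in G12V, a log2 fold change of 1.11 ± 0.23 (SE). Its call was lost whichever single library was left out, while its fold change stayed between 0.99 and 1.27. The calls of CANT1, ICT1, SMG8, SYNGR2 and UBE2O were lost in the same way. COG1, of the Golgi tethering complex, was at 23.5 and 24.4 CPM against 47.2 and 59.6 CPM. RNF157, a ubiquitin ligase, was at 2.05 and 2.33 CPM against 8.77 and 10.8 CPM and overlaps RNF157-AS1. UBE2O and SYNGR2 had log2 fold changes of 0.83 each. P4HB, the disulphide isomerase of the endoplasmic reticulum, was at 679 and 653 CPM against 1164 and 1432 CPM and was not called.

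Metabolism and transport genes had 9 of 41 called higher, 2 lower, and a median of 1.58-fold. Next to GALK1, MGAT5B and GDPD1, CYGB (cytoglobin) was at 1.18 and 1.41 CPM in MCF10A and at 5.17 and 11.3 CPM in G12V. CYGB overlaps PRCD on the other strand, which had 0 counts in both MCF10A libraries and 23 and 32 in G12V, at least 8.98-fold higher. COX11 was at 36.5 and 31.3 CPM against 76.9 and 77.6 CPM. FASN, the fatty acid synthase, was at 1714 and 1498 CPM against 2183 and 3888 CPM, and the lactate exporter gene SLC16A3 was at 670 and 602 CPM against 942 and 921 CPM. Neither was called, although the groups did not overlap. The genes that fell were ST6GALNAC2, a sialyltransferase, at 14.0 and 27.8 CPM against 2.48 and 5.35 CPM, and the transporter gene ABCA8, at 1.05 and 3.04 CPM against 0.21 and 0.13 CPM.

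Adhesion, cytoskeleton, matrix and secretion genes had 4 of 22 called higher, 1 lower, and a median of 1.44-fold. LGALS3BP, a secreted galectin-3 binding protein, was at 189 and 240 CPM in MCF10A and at 479 and 632 CPM in G12V. TANC2, a scaffold protein, was at 67.5 and 80.3 CPM against 171 and 348 CPM, and CUEDC1 was at 22.2 and 25.4 CPM against 62.0 and 50.2 CPM. LLGL2, the 1 member of the list called lower, belongs to the basolateral polarity complex (chr17:73521783-73571290). It was at 70.9 and 68.2 CPM in MCF10A and at 10.4 and 15.4 CPM in G12V, a fall by 2.43 ± 0.26 (SE) on the log2 scale. ITGB4, the integrin subunit of hemidesmosomes, was at 2121 and 4279 CPM against 359 and 907 CPM, did not overlap and was not called (log2 fold change -2.34 ± 0.57 SE). ACTG1, γ-actin, with the most reads in the region, was at 3785 and 3360 CPM against 4039 and 3847 CPM, a log2 fold change of 0.14 ± 0.30 (SE). The 82 tested members in no list had 11 called higher, none lower, and a median of 1.35-fold.

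**Figure D4:**
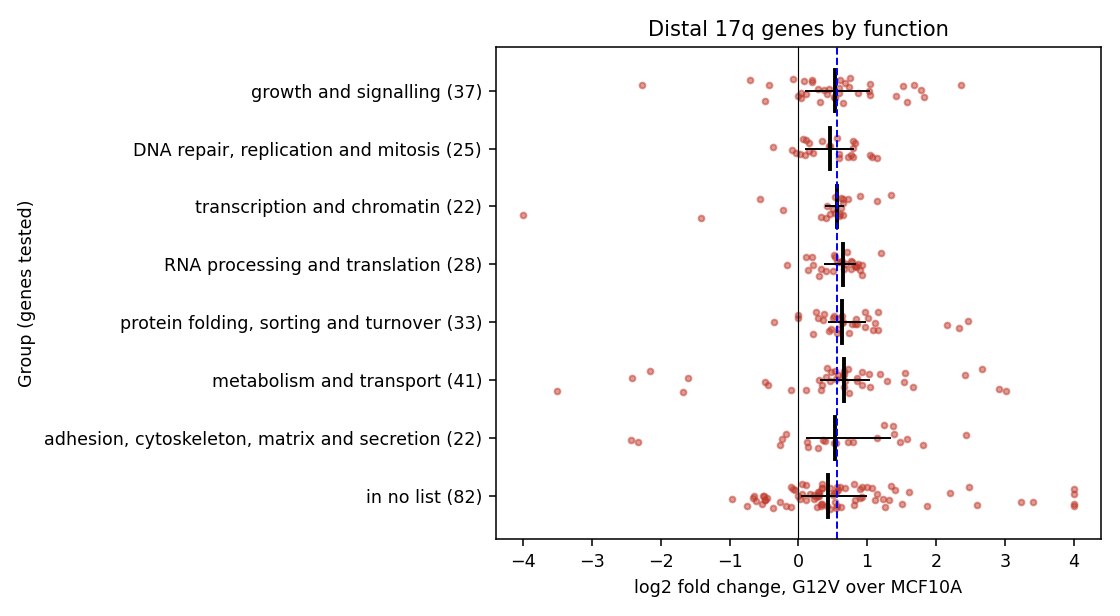
Log2 fold change of G12V over MCF10A (x axis, values beyond 4 drawn at 4) for each tested distal 17q gene, by function (y axis, with the number tested). Points are genes, vertical bars medians, horizontal bars the middle 50%, and the dashed line the median of all 290 members, 0.56. All 8 medians lie above 0.

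A stretch from ABCA8 to LINC00673 (chr17:66863428-70588943) held 5 of the 10 members with a log2 fold change below -1. Its genes were singled out after their values were seen. Starting at ABCA8, the neighbouring transporter genes ABCA9 and ABCA6 had log2 fold changes of -2.15 and -1.60, and ABCA10 and ABCA5 had -0.44 and 0.11. The kinase gene MAP2K6 had -2.27, SOX9 -1.41 and the non-coding LINC00673 -0.97. Of these only ABCA8 was called. ABCA6 was at 30.9 and 75.6 CPM in MCF10A and at 22.6 and 12.6 CPM in G12V. The gap between its MCF10A libraries thus exceeded the difference between the group means. The next tested gene, the zinc transporter gene SLC39A11, was at 0.73.

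The Nutlin-3a experiment, in parental cells, took no part in choosing the region and was tested. Of the 450 genes, 381 were found by symbol and 235 were tested among 13529 genes. PPM1D rose and was the single member called. It was at 18.7, 19.3 and 20.1 CPM after DMSO and at 38.9, 33.0 and 37.9 CPM after Nutlin-3a, so that the groups did not overlap. Its log2 fold change was 0.92 ± 0.12 (SE), and edgeR's quasi-likelihood test gave it an adjusted p of 0.0303 (n = 3 per group). None was called lower, by the same test. Its unadjusted p was under 0.05 for 8 of the 235 members and for 463 of all 13529 genes, a like share. Over all genes 0.155% were called higher and 0.0148% lower. Leaving out any 1 of the 6 libraries, in the same test, ended the PPM1D call.

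Equal replicate numbers marked libraries that varied together, which the test above did not use. With the number as a block 2 members were higher (PPM1D and FDXR) and 2 lower (TRIM47 and CBX2), where 0.702% and 0.517% of all genes were called. For PPM1D the adjusted p was 0.0303 without the block and 2.87e-04 with it (edgeR's quasi-likelihood test). FDXR, a mitochondrial reductase and known p53 target, was at 26.3, 25.6 and 30.5 CPM after DMSO and at 41.6, 48.1 and 63.6 CPM after Nutlin-3a (adjusted p = 0.186 without the block and 3.50e-04 with it, edgeR's quasi-likelihood test). CBX2, a Polycomb protein, was at 23.3, 25.8 and 23.8 CPM against 16.5, 16.4 and 15.7 CPM (adjusted p = 0.225 without and 0.0093 with the block, edgeR's quasi-likelihood test). TRIM47, a ubiquitin ligase, was at 36.4, 35.3 and 33.3 CPM against 21.6, 26.3 and 25.1 CPM (adjusted p = 0.345 without and 0.0183 with the block, edgeR's quasi-likelihood test). The groups did not overlap for any of these genes.

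Over the whole region values after Nutlin-3a lay on both sides of 0. The median log2 fold change of the 235 members was 0.020, against 0.0068 for 493 control genes and 0.0066 for all genes. The range over the members was -0.58 to 0.92, with 80% of them between -0.17 and 0.24. GALK1 (8.42 ± 1.13 against 9.40 ± 1.13 CPM, SD), CLTC (556 ± 53.2 against 601 ± 42.9 CPM, SD) and PITPNC1 (40.8 ± 4.37 against 42.2 ± 4.63 CPM, SD), which were higher in G12V cells, overlapped between DMSO and Nutlin-3a (n = 3 per group).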

How the data were processed

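Poly(A) RNA-seq libraries were made with a kit that does not mark strand. The authors aligned reads to hg19 with TopHat and counted them per gene with HTSeq, and the deposited values are raw read counts. The strand setting and gene annotation are not given in the sources used here, so reads of overlapping genes on opposite strands cannot be told apart. Of the 450 genes, 97 of those tested overlapped another row. The symbols of 3 rows had become dates, of which SEPTIN9 and MARCHF10 were named by coordinates (GENCODE release 44 on hg19, reciprocal overlap of 50%), and 1, called higher in G12V, stayed unnamed.

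The distal 17q genes and the function lists were chosen with earlier results of these data known. Counts were filtered (filterByExpr), TMM-scaled and tested over all genes with edgeR 4.0.16 (quasi-likelihood, prior count 0.125, R 4.3.3) after a check on simulated data, and p-values were Benjamini-Hochberg adjusted. CPM carry no gene length, so they compare libraries and not genes. Named genes were the 8 largest called rises and falls of at least 5 CPM without overlap, and the 5 with the most reads. To these came 3 genes on each side of the limit, and per list up to 4 called rises, 4 called falls and the 2 with the most reads. A fixed set held PPM1D as a p53 target, BIRC5 and TK1 as proliferation genes, and SOX9 and ITGB4 as epithelial genes. It also held RPS6KB1, TBX2, MAP3K3 and GRB2 as genes known from 17q gains in breast tumours. For Nutlin-3a the called members and the 3 largest changes at 10 CPM or more were named. MILR1, RBFOX3, CANT1, SMG8, UBE2O, SYNGR2, PRCD, the ABCA neighbours, MAP2K6, LINC00673 and SLC39A11 were named after their values were seen. A gene that the rule selects is not reported here. The main test of the Nutlin-3a experiment did not use replicate numbers, and the block, an alternative, took them to pair libraries. The deviations of same-numbered libraries correlated at 0.62, 0.60 and 0.64 and others at -0.47 to -0.19. Library totals of that experiment were 15453226 to 17378734 counts. Alternatives were other scalings, filters, tests (exact test, DESeq2 1.42.0), the block, region limits, and leaving out each library. Floors of 3 counts cover counting error only, while SE and SD carry the spread between libraries. Drawing used Python 3.11.15 and matplotlib 3.10.9.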

Additional observations from a re-analysis of the deposited data

How the results depend on the processing

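With the relative log expression or upper-quartile factors and prior count 2, every count and median of distal 17q stayed near its main value. In G12V cells the members called higher or lower numbered 81 and 9 by edgeR's exact test, 74 and 9 by DESeq2, and 145 and 13 with a replicate block. Calls rose over all 14376 genes too, from 720 higher and 855 lower in the main fit. They numbered 1230 and 1306 by the exact test, 1111 and 1196 by DESeq2, and 2071 and 2087 with the block. Nothing is read from the larger counts of members. The G12V numbers are not taken as pairs: the same-numbered deviations correlated at 0.49 with only 2 pairs. Restricting to members of at least 10 CPM left 2 lower, a start at 45 Mb gave 8 lower, and genes that overlap no other row gave 29 higher. The cause was not tested. Leaving out 1 library, the members higher ranged from 0 (without MCF10A replicate 1) to 54 and those lower from 0 to 8 (without G12V replicate 1). The median log2 fold change was 0.59 with library totals alone, with the filter of 1 CPM, and without overlapping genes, and 0.49 to 0.60 leaving out 1 library. The median difference from the control, 0.57, became 0.55 without a filter or with a start at 45 Mb, 0.56 with a start at 55 Mb, 0.61 without overlapping genes, and 0.54 to 0.58 leaving out 1 library.

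After Nutlin-3a, 2 members were higher without a filter, by the exact test, by DESeq2 and with the replicate block. The exact test gave 1 lower, DESeq2 2 and the block 2. Leaving out any library gave 0 higher and 0 lower. The median was -0.016 with library totals alone, against 0.020, and -0.012 to 0.041 leaving out 1 library.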
